A study of Mus musculus with 8 samples.

Results

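Matricellular proteins are secreted proteins that sit in the extracellular matrix and act on cells rather than bear load. The 10 members described here are Spp1 (osteopontin), Tgfbi, the thrombospondins Thbs1 and Thbs2, the tenascin Tnc, the CCN proteins Ccn1 and Ccn2, Sparc and its relative Sparcl1, and fibronectin (Fn1), which is a fibril-forming adhesive glycoprotein set beside them. They were found through the RefSeq accession that each probe carries, which gave 15 probes for the 10 genes among 56605 probes without controls. All 10 genes passed the filter on low values, and they make up 10 of 29362 features tested, of which 16852 are named genes.

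The RNA came from right fronto-parietal cortex of mice and was read on 8 Agilent 2-colour arrays, each holding 2 animals. The 4 groups, of 4 animals each, were cryolesioned mice deficient in microglia-derived Il6, cryolesioned floxed mice, control mice deficient in microglia-derived Il6, and control floxed mice. A cryolesion is a focal injury made by freezing the brain surface, and ipsilateral cortex was taken. The labels name the genotypes only as floxed and as deficient in microglia-derived Il6. The promoter that drives recombination, the deleted part of Il6, the age of the mice, the time after the lesion and the handling of controls are not given in the sources used here. The 4 animals of a group are named as biological replicates.

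In uninjured brain several matricellular genes are low in the grey matter, while glia and vessels express Sparc and Sparcl1 steadily and neurons of the deepest cortical layer express Ccn2. After tissue injury many of them are made by astrocytes, phagocytes, vessel cells and fibroblasts, bind integrins, CD44 and syndecans, and shape adhesion, clearance and scar formation. Tgfbi is named for its induction by TGF-beta, and Ccn1 and Ccn2 are classical targets of the YAP and SRF transcription systems.

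The arrays formed a closed loop of 4 sides with 2 arrays of opposite dye on each. On the floxed-lesion side a cryolesioned floxed mouse shared each array with an Il6-deficient control, and on the deficient-lesion side a cryolesioned Il6-deficient mouse shared it with a floxed control. The lesion side held both cryolesioned groups and the control side both control groups. The cryolesion effect as the mean of both genotypes was therefore measured directly on 4 arrays, while the effect within a genotype went through the other genotype. All 8 arrays lay on 1 slide and were scanned once. Per channel, 61.0% to 67.4% of probes stood well above background, and 0 spots were saturated. All 8 neuron markers and all 9 astrocyte markers were well above background in every animal. The Il6 probe was detected in 0 of 4 Il6-deficient cryolesioned and 3 of 4 floxed cryolesioned mice, against 0 of 4 mice in either control group. Whether it lies within the deleted part of Il6 is not given. The sexes were not balanced: Xist, the transcript of the inactive X chromosome, was well above background in 0 of 8 cryolesioned animals, in 1 of 4 Il6-deficient controls and in 3 of 4 floxed controls.

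The promoter windows of the 4 risers that a RefSeq table for GRCm38.p6 holds are shown with that of Thbs2, whose change did not pass the test. Each runs from 250 bases before to 50 bases after the gene start, 5′ to 3′, and where a gene has several starts the outermost one is shown. The table held 6 of the 10 members. Capitals mark every match, on either strand, to a TATA box (TATAAA), an AP-1 site (TGANTCA), a STAT site (TTCNNNGAA), a TEAD site (GGAATG), a GC box (GGGCGG) or the CArG box of SRF.
Ccn1 (chr3:145649936-145650235, minus strand): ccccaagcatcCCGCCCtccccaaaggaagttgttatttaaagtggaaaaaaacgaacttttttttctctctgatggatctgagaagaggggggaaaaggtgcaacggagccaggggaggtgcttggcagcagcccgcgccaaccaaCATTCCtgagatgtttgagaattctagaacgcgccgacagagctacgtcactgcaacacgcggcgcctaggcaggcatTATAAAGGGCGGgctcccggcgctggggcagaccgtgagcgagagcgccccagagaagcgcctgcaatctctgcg
Spp1 (chr5:104434861-104435160, plus strand): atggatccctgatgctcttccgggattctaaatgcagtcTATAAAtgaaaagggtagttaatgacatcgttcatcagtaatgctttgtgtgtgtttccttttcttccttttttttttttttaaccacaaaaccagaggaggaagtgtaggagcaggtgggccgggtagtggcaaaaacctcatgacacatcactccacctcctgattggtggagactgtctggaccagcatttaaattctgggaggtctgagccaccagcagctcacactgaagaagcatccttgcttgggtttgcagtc
Tgfbi (chr13:56609336-56609635, plus strand): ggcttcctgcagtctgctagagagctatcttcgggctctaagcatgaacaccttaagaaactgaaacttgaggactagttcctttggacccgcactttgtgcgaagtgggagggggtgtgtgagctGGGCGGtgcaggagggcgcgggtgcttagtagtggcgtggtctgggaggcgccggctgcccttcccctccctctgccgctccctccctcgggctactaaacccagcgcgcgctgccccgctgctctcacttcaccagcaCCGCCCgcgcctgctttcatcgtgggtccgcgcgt
Tnc (chr4:64046966-64047265, minus strand): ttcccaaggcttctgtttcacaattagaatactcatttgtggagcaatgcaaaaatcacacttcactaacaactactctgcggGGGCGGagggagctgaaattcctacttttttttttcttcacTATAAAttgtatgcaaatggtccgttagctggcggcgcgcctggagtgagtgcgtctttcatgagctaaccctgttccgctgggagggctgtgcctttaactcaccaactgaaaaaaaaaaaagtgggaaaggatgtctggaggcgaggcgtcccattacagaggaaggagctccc
Thbs2 (chr17:14694213-14694512, minus strand): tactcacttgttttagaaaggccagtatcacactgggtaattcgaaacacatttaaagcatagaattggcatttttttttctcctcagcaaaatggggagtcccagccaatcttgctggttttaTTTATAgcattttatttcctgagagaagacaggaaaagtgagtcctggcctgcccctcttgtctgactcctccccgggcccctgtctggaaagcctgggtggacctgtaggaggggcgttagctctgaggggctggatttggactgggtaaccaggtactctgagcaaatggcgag
The Ccn1 window held a TATA box from base -25 to -20, a GC box that adjoins it, a second GC box and a TEAD site on the minus strand from base -103 to -98. In the Spp1 and Tnc windows the TATA match lay farther out, at base -211 and base -126, and the Tgfbi window held GC boxes alone. The Thbs2 window held 1 TATA match on the minus strand. No AP-1, STAT or CArG match was found in any of the 8 windows of the members. Of 32851 windows in the table, 13.6% held the TATA box, 7.81% the AP-1, 8.3% the STAT, 14.7% the TEAD, 35.7% the GC and 1.63% the CArG letters. A match describes letters and not a used site.

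Cryolesioned cortex held more RNA of Spp1, Tgfbi, Ccn1, Thbs1 and Tnc than control cortex and less of Sparcl1, while Thbs2 and Ccn2 averaged close to 0 change and Sparc and Fn1 did not pass with their brightest probe. As the mean of both genotypes, 6 of the 10 members passed at a Benjamini-Hochberg adjusted p under 0.05 in limma, 5 higher and 1 lower. Of all 29362 features 11.9% passed in this comparison, 6.02% higher and 5.87% lower. The members' median log2 change was 0.82, against -0.00898 over all features. In whole tissue, more cells of a type and more RNA per cell cannot be told apart. Log2 levels of 1 probe are compared between animals below and never between probes, and because a constant of 50 was added to each intensity, log2 changes of dim genes are understated.

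**Figure D1:**
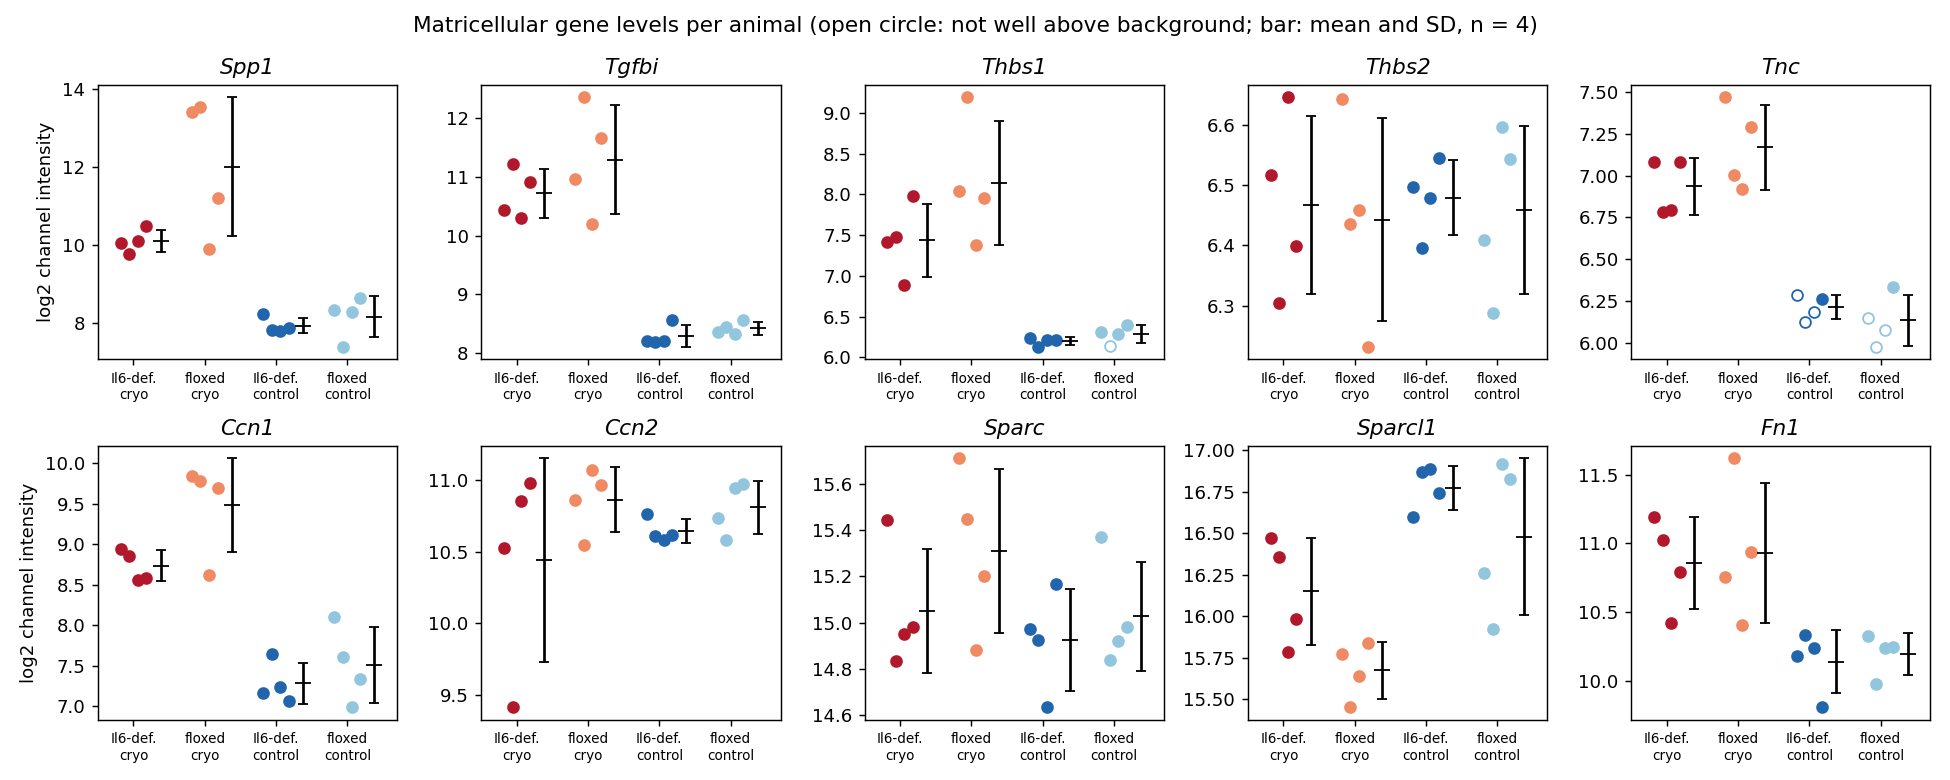
Log2 channel intensity of each member's brightest probe in each of the 16 animals, from left to right Il6-deficient cryolesioned, floxed cryolesioned, Il6-deficient control and floxed control animals, with mean and SD (n = 4). Open circles are not well above background. Spp1, Tgfbi, Thbs1, Tnc, Ccn1 and Fn1 have every cryolesioned animal above every control, and each panel has its own scale.

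Spp1 encodes osteopontin, an integrin and CD44 ligand that phagocytes secrete in injured tissue. Its log2 level was 10.05, 9.78, 10.11 and 10.48 in Il6-deficient cryolesioned animals and 13.41, 13.54, 9.89 and 11.21 in floxed cryolesioned animals, against 8.23, 7.83, 7.81 and 7.89 in Il6-deficient controls and 8.33, 7.41, 8.30 and 8.64 in floxed controls. Every cryolesioned animal lay above every control, and floxed cryolesioned animals 1 and 2 lay far above the other 6 cryolesioned animals. The change was 3.72 ± 0.50 on the log2 scale (SE, adjusted p = 0.00647 in limma), which is 13.2-fold and ranked 9 by size among all features. By group mean the order was floxed cryolesioned (12.01 ± 1.77), Il6-deficient cryolesioned (10.11 ± 0.29), floxed control (8.17 ± 0.53) and Il6-deficient control (7.94 ± 0.19; SD, n = 4 each). Neither the 2 cryolesioned groups nor the 2 control groups differed past the threshold.

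Tgfbi encodes a TGF-beta-induced integrin ligand that binds collagen. Its log2 level was 10.44, 11.21, 10.30 and 10.90 in Il6-deficient cryolesioned animals and 10.96, 12.35, 10.19 and 11.65 in floxed cryolesioned animals, against 8.21, 8.19, 8.21 and 8.56 in Il6-deficient controls and 8.36, 8.44, 8.33 and 8.57 in floxed controls. The cryolesioned and control animals did not overlap, and the cryolesioned groups overlapped each other. The change was 2.71 ± 0.21 (SE, adjusted p = 0.00123 in limma), or 6.54-fold.

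Ccn1 encodes a heparin-binding integrin ligand and is an immediate early gene. Its log2 level was 8.94, 8.85, 8.56 and 8.58 in Il6-deficient cryolesioned animals and 9.84, 9.78, 8.63 and 9.69 in floxed cryolesioned animals, against 7.17, 7.65, 7.24 and 7.07 in Il6-deficient controls and 8.11, 7.61, 6.99 and 7.33 in floxed controls. All 8 cryolesioned animals lay above all 8 controls, and 3 of the 4 floxed cryolesioned animals lay above every Il6-deficient cryolesioned one. The change was 2.03 ± 0.23 (SE, adjusted p = 0.00382 in limma), or 4.09-fold. Ccn2, its close relative with an analogous domain order, behaved otherwise. The log2 level of Ccn2 was 10.52, 9.42, 10.85 and 10.97 in Il6-deficient cryolesioned animals and 10.86, 10.55, 11.07 and 10.96 in floxed cryolesioned animals, against 10.76, 10.61, 10.58 and 10.61 in Il6-deficient controls and 10.74, 10.58, 10.94 and 10.97 in floxed controls. The groups overlapped, with Il6-deficient cryolesioned animal 2 lowest of all 16. The mean change of Ccn2 was 0.03 ± 0.17 (SE, 95% interval -0.36 to 0.43, adjusted p = 0.929 in limma). This mean joins fitted changes of opposite sign, and neither of them passed. The change was 0.57 ± 0.24 in floxed mice (SE, adjusted p = 0.245 in limma). In Il6-deficient mice it was -0.51 ± 0.24 (SE, adjusted p = 0.305 in limma).

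The thrombospondins split as well. Thbs1, which activates latent TGF-beta and restrains vessel growth, had log2 levels of 7.41, 7.48, 6.89 and 7.98 in Il6-deficient cryolesioned animals and 8.04, 9.19, 7.38 and 7.95 in floxed cryolesioned animals, against 6.24, 6.13, 6.21 and 6.22 in Il6-deficient controls and 6.31, 6.14, 6.29 and 6.40 in floxed controls. The controls lay within a narrow band just above background, and floxed control animal 2 was not well above it. The change was 1.74 ± 0.26 (SE, adjusted p = 0.00983 in limma), or 3.35-fold. It was 3.38 on the log2 scale with the scanner's processed signals, in which no constant is added. With controls this dim, the size of the change is not settled. The dimmer Thbs1 probe gave 1.17 ± 0.28 (SE, adjusted p = 0.0421 over 37352 probes in limma). That dimmer probe was well above background in all 8 cryolesioned animals but in only 1 of 4 controls of each genotype. Its value therefore does not give the size of the change. Thbs2, which like Thbs1 can be secreted by astrocytes and promotes synapse formation in culture, ranged from 6.31 to 6.64 in Il6-deficient cryolesioned and from 6.23 to 6.64 in floxed cryolesioned animals, against 6.40 to 6.54 in Il6-deficient and 6.29 to 6.60 in floxed controls. It was well above background in all 16 animals, yet its change was -0.01 ± 0.08 (SE, 95% interval -0.20 to 0.17, adjusted p = 0.951 in limma). A change the size of that of Thbs1 lies outside this interval. Thbs2 was dim, however. Its signal ran from 31 against a local background of 28 (Il6-deficient cryolesioned animal 2) to 123 against 68 (floxed control animal 3). The added constant therefore understates changes of Thbs2 and narrows this interval.

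Tnc encodes tenascin-C, a hexameric matrix protein of development and wound repair. Its log2 level was 7.08, 6.78, 6.79 and 7.08 in Il6-deficient cryolesioned animals and 7.47, 7.00, 6.92 and 7.29 in floxed cryolesioned animals, against 6.28, 6.13, 6.19 and 6.26 in Il6-deficient controls and 6.15, 5.98, 6.08 and 6.33 in floxed controls. All 8 cryolesioned animals were well above background, but only 1 control animal of each genotype was. The change was 0.87 ± 0.10 (SE, adjusted p = 0.00449 in limma), or 1.83-fold. It was 2.60 with the scanner's processed signals, in which no constant is added. Since most controls were not well above background, neither value gives the size of the change. The dimmer Tnc probe was well above background in no control. Each control was therefore set at the larger of the probe's own signal and the dimmest signal that any detected probe had on that channel. The mean level of this probe was then 1.41-fold higher in Il6-deficient cryolesioned than in Il6-deficient control animals. In floxed mice it was 1.67-fold higher in cryolesioned than in control animals, which is also the ratio of the measured means. Neither value allows for the spread between animals, so neither is a sure lower bound.

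Fn1, the integrin-binding glycoprotein of plasma and matrix, had log2 levels of 11.19, 11.03, 10.42 and 10.80 in Il6-deficient cryolesioned animals and 10.76, 11.62, 10.41 and 10.94 in floxed cryolesioned animals, against 10.18, 10.34, 10.24 and 9.81 in Il6-deficient controls and 10.33, 9.97, 10.24 and 10.25 in floxed controls. The lowest cryolesioned animal, at 10.41, still lay above the highest control, at 10.34. The change of 0.77 ± 0.28 did not pass (SE, adjusted p = 0.127 in limma). Of the other 2 Fn1 probes, 1 passed with 0.72 ± 0.13 (adjusted p = 0.0168 over 37352 probes) and the other, with 0.44 ± 0.13, did not (adjusted p = 0.0766).

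Sparc encodes a collagen-binding glycoprotein, and Sparcl1 (hevin) a relative that astrocytes secrete and that promotes synapse formation. Sparcl1 had log2 levels of 16.47, 16.36, 15.78 and 15.98 in Il6-deficient cryolesioned animals and 15.77, 15.45, 15.64 and 15.84 in floxed cryolesioned animals, against 16.60, 16.87, 16.88 and 16.74 in Il6-deficient controls and 16.26, 15.92, 16.91 and 16.82 in floxed controls. Within Il6-deficient animals the cryolesioned ones all lay below the controls, and the same held within floxed animals, but floxed controls 1 and 2 fell within the range of Il6-deficient cryolesioned animals. Its change of -1.09 ± 0.19 passed (SE, 0.469-fold, adjusted p = 0.0150 in limma). With a covariate for sex the change was -0.79, and it did not pass without floxed-lesion side array 2 (adjusted p = 0.0554) or without deficient-lesion side array 2 (adjusted p = 0.0953). Sparc ranged from 14.83 to 15.44 in Il6-deficient cryolesioned and from 14.88 to 15.71 in floxed cryolesioned animals, against 14.63 to 15.17 in Il6-deficient and 14.84 to 15.37 in floxed controls, so the groups overlapped. Its change of 0.35 ± 0.18 did not pass with the brightest probe (SE, adjusted p = 0.272 in limma), while the dimmer probe gave 0.53 ± 0.09 (adjusted p = 0.0133 over 37352 probes).

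In all, 6 of the 10 members had every cryolesioned animal above every control and 0 had every cryolesioned animal below. Over all features those shares were 3.24% and 1.73%. Thbs2, Ccn2, Sparc and Sparcl1 overlapped. Floxed cryolesioned animal 3 was the lowest of its group for Spp1, Tgfbi, Thbs1, Tnc and Ccn1. It was also lowest in summed level for 12 of the 16 gene and marker lists described below, those of neurons and microglia included, and for Il6, which was not well above background in it.

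**Figure D2:**
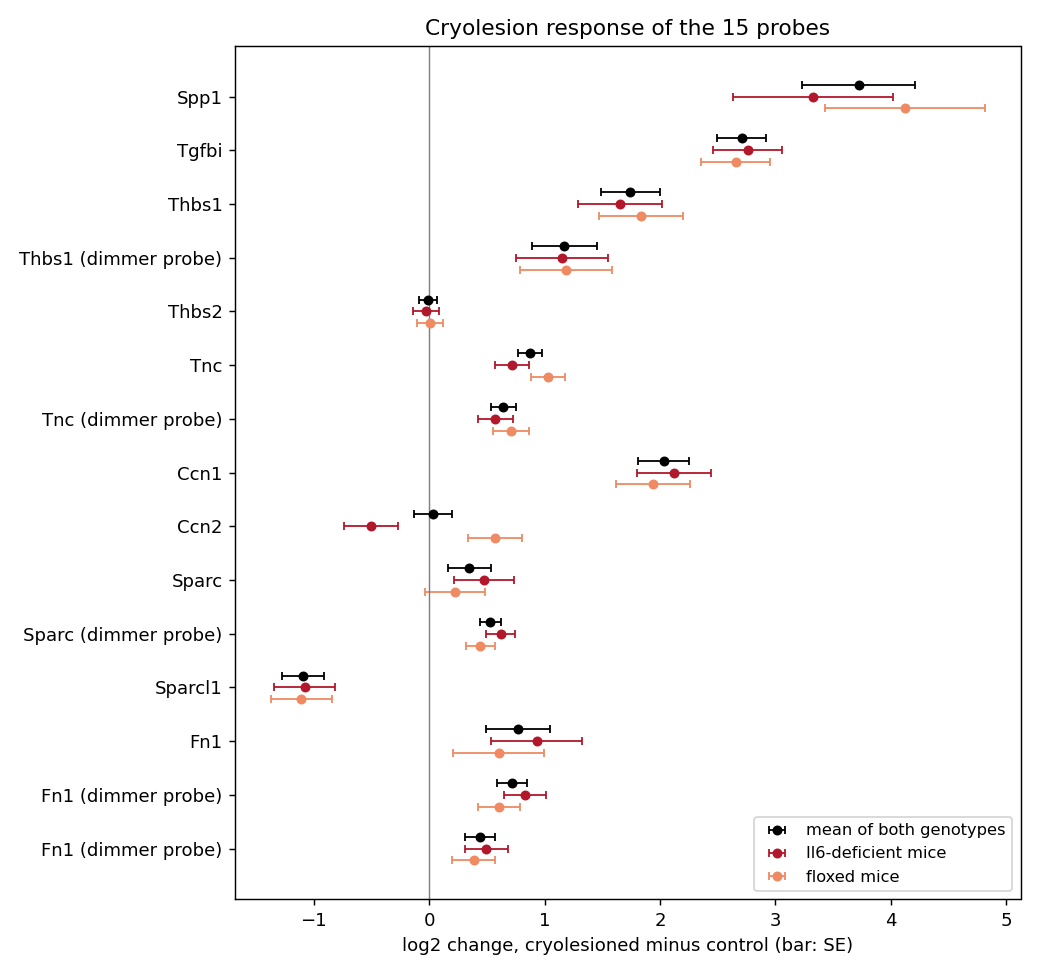
Log2 change of cryolesioned minus control animals for the 15 probes of the 10 members (points), with SE (bars), for the mean of both genotypes, Il6-deficient mice and floxed mice. Where a gene has several probes they lie on the same side of 0, and Sparcl1 lies at -1.09 for the mean, -1.08 in Il6-deficient and -1.11 in floxed mice.

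Within Il6-deficient mice 2 of the 10 members passed, Tgfbi at 2.76 ± 0.30 (adjusted p = 0.0111) and Ccn1 at 2.12 ± 0.32 (adjusted p = 0.0271 in limma), where 2.73% of all features passed. The median over members was 0.824, against -0.00852 over all features. Within floxed mice 4 of 10 passed, where 3.05% of all features did, with a median of 0.815 against -0.0104. These were Spp1 at 4.12 ± 0.70 (adjusted p = 0.0321), Tgfbi at 2.66 ± 0.30 (adjusted p = 0.0114), Tnc at 1.03 ± 0.15 (adjusted p = 0.0202) and Ccn1 at 1.94 ± 0.32 (adjusted p = 0.0299 in limma). Spp1 and Tnc missed the threshold in Il6-deficient mice with 3.33 ± 0.70 (adjusted p = 0.0626) and 0.72 ± 0.15 (adjusted p = 0.0586), and this is no test of a difference between genotypes. The count in floxed mice was 0 without control side array 1, without lesion side array 2 or without deficient-lesion side array 2, as was the count in Il6-deficient mice. Fewer arrays leave fewer degrees of freedom for every feature. The counts over all features in these reduced fits are not given here, so a count of 0 is no result about the members.

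Each within-genotype value averages 2 paths round the loop, and for Spp1 these lay far apart. In floxed mice the Spp1 change was 5.78 through the Il6-deficient controls and 2.46 through the Il6-deficient cryolesioned animals, a gap of 3.32, where the median absolute gap over all features was 0.205. The single arrays show the same split: floxed cryolesioned over Il6-deficient control animals gave Spp1 log2 ratios of 5.60 and 5.64, and Il6-deficient cryolesioned over floxed control animals gave 1.81 and 1.85. The floxed cryolesioned animals on the floxed-lesion side were the 2 with Spp1 levels of 13.41 and 13.54, and those on the lesion side had 9.89 and 11.21. The gap was 1.35 for Fn1, 1.10 for Sparcl1, 1.05 for Thbs1, 0.82 for Tgfbi, 0.60 for Sparc, 0.53 for Ccn1, 0.25 for Tnc and 0.24 for Thbs2. For Ccn2 it ran the other way at -0.87, with 0.13 through the Il6-deficient controls and 1.01 through the Il6-deficient cryolesioned animals. On the 4 arrays that held a cryolesioned and a control animal, Tgfbi gave 2.74 and 3.78 on the floxed-lesion side and 1.97 and 2.34 on the deficient-lesion side, Ccn1 gave 2.60 and 2.70 against 1.57 and 1.24, and Sparcl1 gave -1.11 and -1.29 against -1.13 and -0.84. All 4 such arrays therefore had the same sign for these genes, as they had for Spp1, Thbs1, Tnc and Fn1. Xist was well above background in both floxed controls of the deficient-lesion side, and in no other animal on these 4 arrays. Differences between these sides, and the path gaps that rest on them, can therefore not be told apart from sex.

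**Figure D3:**
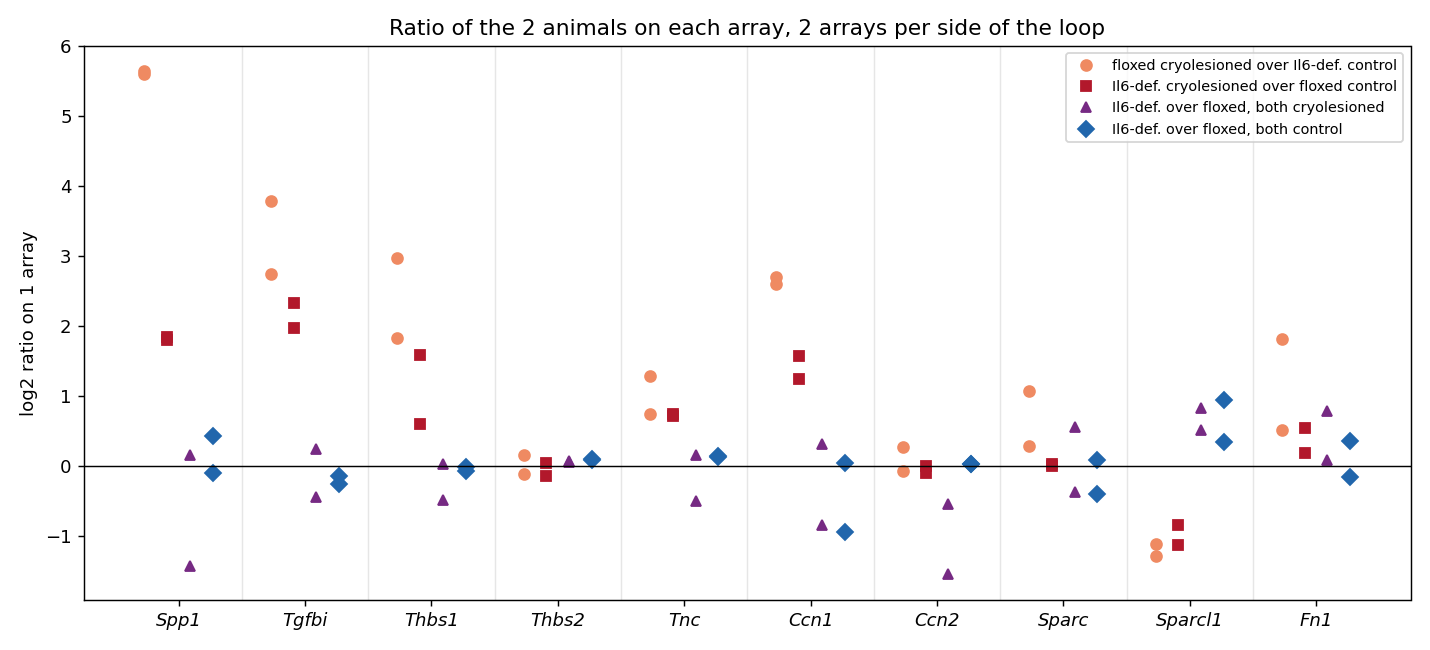
Log2 ratio between the 2 animals of each array for the 10 members, with 2 arrays for each of the 4 sides of the loop. The Spp1 ratios near 5.6 on the floxed-lesion side stand apart from those near 1.8 on the deficient-lesion side, and the 2 Ccn2 ratios of Il6-deficient over floxed cryolesioned animals are both below 0.

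The comparison of Il6-deficient with floxed mice describes how these genes differ between the genotypes. Xist was well above background in 1 of 4 Il6-deficient controls and in 3 of 4 floxed controls. Genotype and sex can therefore not be fully told apart in control mice, for the interaction or for the mean of both states. The genotype comparison gave 0 called members in cryolesioned mice, 0 in control mice and 0 for the interaction with the lesion. Over all features 0% passed in each of the 3 comparisons, although 2529 features in cryolesioned mice, 1299 in control mice and 972 for the interaction had an unadjusted p under 0.05 in limma. In cryolesioned mice Spp1 was -1.47 ± 0.61 (95% interval -2.91 to -0.03, adjusted p = 0.580) and Ccn2 -0.83 ± 0.20 (95% interval -1.31 to -0.35, adjusted p = 0.563). The lesion-side arrays gave Ccn2 ratios of -0.55 and -1.55, both lower in the Il6-deficient animal, but Spp1 ratios of 0.16 and -1.43, which differ in sign. The Ccn2 difference was -1.05 on those arrays but -0.18 by the other way round the loop, and without lesion side array 2 the fitted value was -0.43. For Spp1 the lesion side gave -0.64 and the other way round -3.95, and the fitted value was -2.58 without lesion side array 1. For Tgfbi the interval was -0.92 to 0.32, for Thbs1 -1.24 to 0.28, for Tnc -0.53 to 0.07 and for Ccn1 -1.06 to 0.26, and each of these intervals includes 0. In control mice the changes ranged from -0.67 (Spp1) to 0.37 (Sparcl1), with adjusted p from 0.983 to 0.989. The interaction was -0.80 ± 0.99 for Spp1 and -1.08 ± 0.33 for Ccn2 (unadjusted p = 0.0145 for Ccn2 in limma, adjusted p of 1.00 for every member). Leaving out single arrays moved the interaction of Spp1 between -2.29 (without lesion side array 1) and 0.43 (without control side array 2), so its sign was not settled, and that of Ccn2 was -0.54 without lesion side array 2.

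As the mean of both states, a comparison added after the data were seen, 0 members passed, and 0.00341% of all features (1 of 29362) did. That feature was the microglia marker Cx3cr1, which encodes the fractalkine receptor and was lower in Il6-deficient mice (-0.93 ± 0.06, 0.525-fold, adjusted p = 0.0230 in limma). Spp1 was -1.07 ± 0.35 and Ccn1 -0.49 ± 0.16 (adjusted p = 0.299 each in limma), and Sparcl1 was 0.38 ± 0.13 (adjusted p = 0.312). With a covariate for sex Sparcl1 was 0.53 (adjusted p = 0.0275 in limma), the 1 member called in that fit. Sparcl1 was called under 1 of 19 alternatives for this comparison. The share of all features called with the covariate is not given here, so the 0.00341% is no background for that call.

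Among 19 tested relatives of these families, 6 rose, 2 fell and 11 did not pass, with a median of 0.18. For this list and those below, 11.9% of all features passed in the mean cryolesion comparison, 6.02% higher and 5.87% lower. The risers included the insulin-like growth factor binding protein Igfbp7 (1.09 ± 0.20), Ecm1 (1.01 ± 0.20), the SPARC relative Smoc2 (0.96 ± 0.21) and the tenascin Tnn (0.82 ± 0.18). Ccn3, the third classical CCN protein (-0.71 ± 0.15), and vitronectin Vtn (-0.44 ± 0.06) fell. Ccn4 at 0.79 ± 0.32 and Thbs4 at 0.49 ± 0.25 did not pass.

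Of 20 tested receptors 6 rose, 1 fell and 13 did not pass, with a median of 0.0107. Cd44, the hyaluronan and osteopontin receptor, had the largest change of the list at 3.45 ± 0.21, followed by the syndecan Sdc4 (1.75 ± 0.15), the scavenger receptor Stab1 (1.10 ± 0.16), which binds SPARC, and Sdc1 (0.91 ± 0.21). The integrin chains Itgb2 (0.64 ± 0.10) and Itgb1 (0.54 ± 0.13) were the other 2 risers. Cacna2d1, the neuronal thrombospondin receptor and calcium channel subunit, fell (-0.84 ± 0.13). Itga4 at -0.62 ± 0.19 and Itga5 at 0.49 ± 0.13 did not pass, and Itgav, a chain of the classical osteopontin receptor, was 0.07 ± 0.14.

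In the latent TGF-beta system 5 of 12 genes rose, 0 fell and 7 did not pass, with a median of 0.287. The latent binding protein Ltbp2 (0.68 ± 0.16), the ligand Tgfb1 (0.55 ± 0.13), the latent binding protein Ltbp1 (0.51 ± 0.12) and the receptor chain Tgfbr2 (0.46 ± 0.08) led the risers. Lrrc32, which anchors latent TGF-beta on cells, was 0.58 ± 0.23 and did not pass, as did Tgfb3 at 0.26 ± 0.09.

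Among 18 tested target genes of YAP and SRF, 7 rose, 1 fell and 10 did not pass, with a median of 0.247. The actin-associated Tagln (2.18 ± 0.17), the actin crosslinker Flna (1.60 ± 0.14) and the AP-1 subunits Fosl1 (1.50 ± 0.30) and Fos (1.46 ± 0.27) led, while the immediate early gene Egr1 fell (-0.70 ± 0.18). Zyx at 0.51 ± 0.18 and Acta2 at 0.29 ± 0.09 did not pass. Of 21 structural matrix genes 6 rose, 0 fell and 15 did not pass, with a median of 0.466. The basement membrane chain Col4a1 (1.42 ± 0.31), the crosslinking enzyme Tgm2 (1.42 ± 0.23), the small proteoglycan Dcn (1.40 ± 0.31) and the collagen chaperone Serpinh1 (1.37 ± 0.07) led, and Col4a2 (0.86 ± 0.24) and Lox (0.56 ± 0.18) did not pass. The fibrillar collagen chain Col3a1 rose (1.21 ± 0.17), whereas Col1a1 was 0.15 ± 0.27. In the Il6 comparisons 0 genes of these 5 lists passed. Of all 29362 features, 0 passed in control mice, in cryolesioned mice or for the interaction, and 1 passed as the mean of both states. The count of 0 is therefore no result about these lists.

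**Figure D4:**
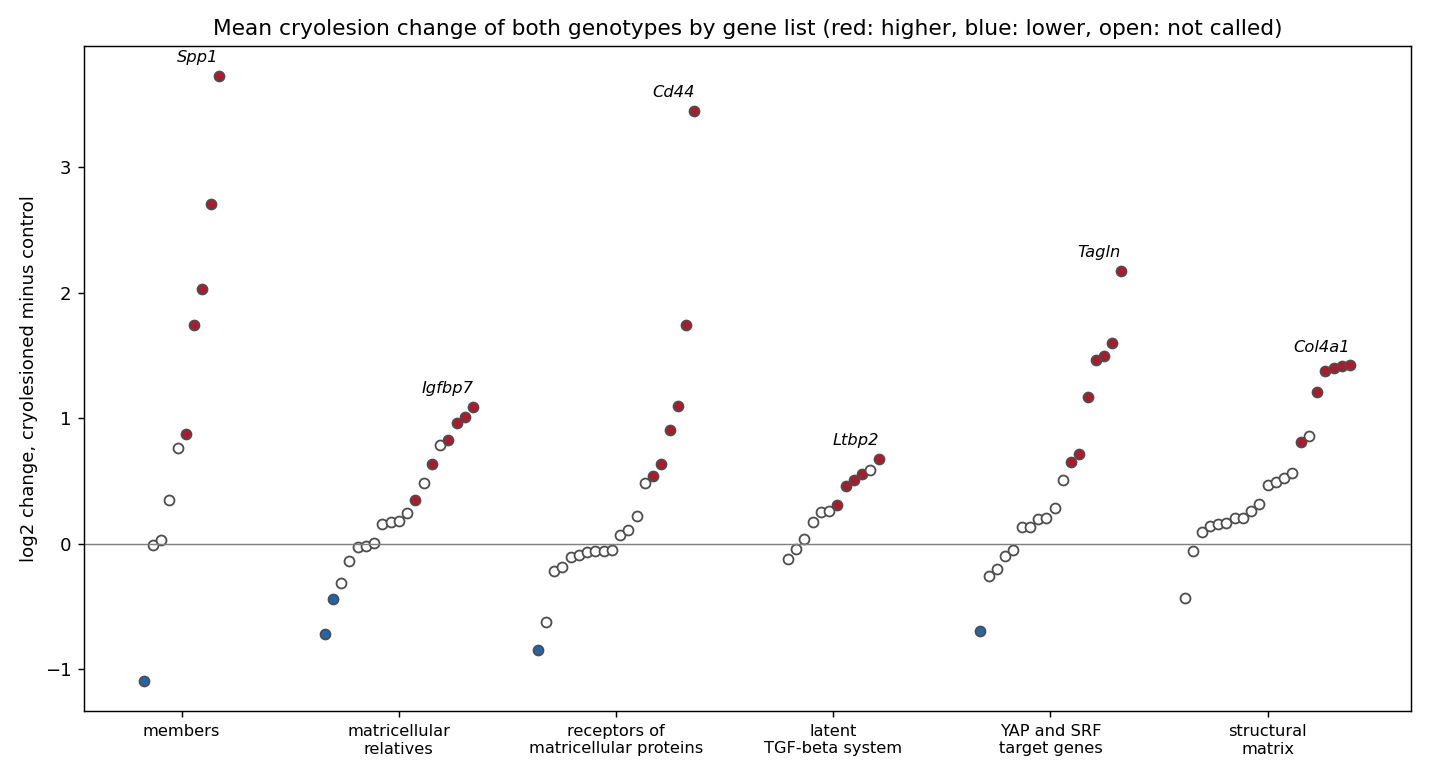
Mean cryolesion log2 change of both genotypes for the members and for 5 gene lists, each point 1 gene, sorted by size within a list. Red points were higher and blue points lower at adjusted p under 0.05, open points did not pass, and the highest called gene of each list is named.

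Markers of phagocytes, monocytes and neutrophils included genes that rose with the lesion. Of 8 tested activated phagocyte markers 5 rose and 0 fell, led by Lgals3 (3.29 ± 0.19), and the log2 of their summed level was 14.36 to 14.71 in Il6-deficient and 14.35 to 14.78 in floxed cryolesioned animals, against 14.13 to 14.32 in Il6-deficient and 14.15 to 14.35 in floxed controls. Of 9 monocyte and macrophage markers 6 rose and 0 fell, led by Chil3 (1.89 ± 0.31), with sums of 12.25 to 12.90 in Il6-deficient and 12.58 to 13.46 in floxed cryolesioned animals, against 12.06 to 12.48 and 12.21 to 12.26 in Il6-deficient and floxed controls. Of 5 neutrophil markers S100a9 (2.48 ± 0.22) and S100a8 (2.24 ± 0.26) rose, with sums of 10.28 to 11.22 in Il6-deficient and 10.61 to 12.12 in floxed cryolesioned animals, against 9.36 to 9.65 and 9.45 to 9.60 in the Il6-deficient and floxed controls. Of 8 microglia markers Cx3cr1 rose (0.36 ± 0.08) and P2ry12 (-1.47 ± 0.26), Tmem119 (-0.57 ± 0.14) and Csf1r (-0.31 ± 0.07) fell. The microglia sums were 15.47 to 16.09 in Il6-deficient and 15.37 to 15.79 in floxed cryolesioned animals, against 15.62 to 16.08 and 15.38 to 15.81 in the Il6-deficient and floxed controls. Because a constant was added to each intensity, a summed level cannot reach 0 and does not show that a cell type was present. Each marker list had at least 4 genes well above background in every animal. The part of these cells in the members' changes was not tested.

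Of 9 astrocyte markers the reactive ones Gfap (3.58 ± 0.18) and Vim (2.68 ± 0.15) and the water channel Aqp4 (0.72 ± 0.12) rose, and the gap junction gene Gja1 (-0.78 ± 0.19) and Aldoc (-0.86 ± 0.07) fell. The astrocyte sums were 16.78 to 17.31 in Il6-deficient and 16.64 to 17.01 in floxed cryolesioned animals, against 16.83 to 17.17 and 16.83 to 17.31 in the Il6-deficient and floxed controls. Of 8 meningeal fibroblast markers 0 rose, Ogn fell (-0.86 ± 0.19), and the sums were 11.70 to 12.47 in Il6-deficient and 11.75 to 12.83 in floxed cryolesioned animals, against 11.84 to 12.19 and 11.84 to 12.47 in the Il6-deficient and floxed controls. Endothelial markers had 2 of 8 higher and 1 lower, mural markers 1 of 6 higher, platelet markers 0 of 6 called, neuron markers 2 of 8 lower and oligodendrocyte markers 1 of 7 lower. Of all features 6.02% were higher and 5.87% lower in this comparison. Counts this small in lists this short are therefore not read as results about a cell type. All 5 sex-linked transcripts missed the threshold, from -0.79 ± 0.41 for Xist to 1.58 ± 0.79 for Eif2s3y. Their imbalance moves with the lesion and, among controls, with the genotype. A covariate for sex gave a cryolesion change of 4.34 for Spp1, where the fit without it gave 3.72.

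For each called member the 2 named genes with the nearest pattern were found by the root mean square (RMS) difference of levels, centred per gene, over the 16 animals. Emp1 (RMS 0.502) and the chemokine Ccl4 (0.534) lay nearest to Spp1, AA467197 (0.27) and the oncostatin M receptor Osmr (0.314) to Tgfbi, and Akr1b8 (0.183) and Igfbp3 (0.202) to Thbs1. Lrrc25 (0.129) and Serpina3j (0.145) lay nearest to Tnc, Dab2 (0.27) and Gadd45g (0.289) to Ccn1, and Clstn1 (0.115) and Rab6b (0.118) to Sparcl1. The animals share arrays, and all these genes carry the lesion difference, so the distances are descriptions. The RMS of the member's own centred levels was 1.84 for Spp1, 1.41 for Tgfbi, 0.899 for Thbs1, 0.473 for Tnc, 0.966 for Ccn1 and 0.486 for Sparcl1.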

How the data were processed

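Total RNA of 16 mice was hybridised in pairs to 8 two-colour Agilent arrays. Per the file headers and the submitters' processing notes, spots were quantified by Agilent Feature Extraction, version 10.7.3.1. The median intensity of each spot and its local background was deposited without normalization; the processed intensity was, per the file headers, background-subtracted and dye-normalized. The log10 ratio deposited by the authors is red over green of the processed signals. The authors' table holds log2 ratios whose background correction and scaling are not stated; its columns rose with Cy5 over Cy3, correlated at 0.967 to 0.978 with the ratios fitted here, had slopes of 1.12 to 1.25 on them and medians of -0.0045 to 0.0050, so the exact scale is unknown.

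Background was corrected with normexp (offset 50) and ratios with loess. Control spots and the 115 to 194 flagged spots per array were left out, spots of a probe were averaged, and probes well above background in at least 4 of 16 channels were kept (37352). Probes were named through RefSeq accessions without version (32994 named, 23611 not); a gene is its brightest probe, and other probes are given beside it. Levels are log2 intensities after loess and Aquantile. Ratios were fitted with limma (version 3.58.1, under R 4.3.3), using a dye intercept beside 3 coefficients for the groups (4 residual and 2.95 prior degrees of freedom), with Benjamini-Hochberg adjustment over all features at 0.05. The fit was tested on simulated data.

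The members and the 18 gene lists were chosen with earlier results of these data known. In the latent TGF-beta list 1 gene is not reported here and is left out of that list's counts. Named are all members and, from each list, up to 4 called genes in each direction and up to 2 of the largest that did not pass; Itgb1, Itgb2, Itgav, Col3a1, Col1a1 and the chromosome 5 neighbours were named after their values were seen. Alternatives were another offset, median centring, the scanner's processed signals, the authors' table, other filters, the mean of all probes, separate-channel fits, a covariate for sex, no dye intercept and leaving out each array. The precision is limited by the number of arrays.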

Additional observations from a re-analysis of the deposited data

Results flagged for a closer look

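Among the 40 groups of 4 animals examined (10 members in 4 groups), 2 held an animal whose gap to its nearest neighbour took up more of the group's range than Dixon's 95% critical value allows, and chance flags about 1 in 20 groups. For Tgfbi this was Il6-deficient control animal 4, at a log2 level of 8.561 against 8.191 to 8.212 in the other 3 animals, still below every cryolesioned animal. For Ccn1 it was floxed cryolesioned animal 3, at 8.626 against 9.693 to 9.844 in the other 3 animals of that group; it remained above every control. The cause was not tested.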

How the results depend on the processing

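As the mean of both genotypes, Spp1, Tgfbi, Tnc and Ccn1 passed under all 19 alternatives, with log2 changes of 2.98 to 4.34 for Spp1 and 2.34 to 2.91 for Tgfbi, and Thbs1 and Sparcl1 lost the call without single arrays (Thbs1 without deficient-lesion side array 2, adjusted p = 0.0705). Thbs1 reached 3.38 with the processed signals, in which no offset is added to the dim control signal. The count of 6 members became 7 in the separate-channel fit, with or without the replicate block, and 4 to 6 on leaving out an array; over all features 3492 passed, 7794 in the separate-channel fit and 8518 with the block. Fn1 passed in those separate-channel fits (adjusted p from 0.00225). In floxed mice the count of 4 was 2 with median centring, 2 with no filter, 7 in the separate-channel fit, 7 with the replicate block and 0 to 5 without an array. In Il6-deficient mice the count of 2 was 5 with an offset of 16, 5 with the authors' table, 6 in the separate-channel fit, 6 with the replicate block, 4 with the covariate for sex and 0 to 4 without an array. Il6 deficiency gave 0 members throughout, except 1 as the mean of both states with the covariate for sex. Of all features 896 passed in floxed mice, 4488 in the separate-channel fit and 5004 with the block. In Il6-deficient mice these counts were 803, 2573 and 3097, so the higher member counts of the separate-channel fits came with a higher background. For the other settings the count over all features is not given here, so their member counts cannot be set against a background. Deviations of same-numbered animals correlated at 0.116 to 0.364 for number 2 but as low as -0.251 for the other numbers (highest 0.533), so the numbers were not taken as pairs and the block is only a check. In 0 cases did a called change turn its sign. The cause of these shifts was not tested, and fewer arrays leave fewer degrees of freedom.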

Other observations

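Spp1 and Sparcl1, the members with the largest rise and the only called fall, lie in one gene neighbourhood on chromosome 5, in the order Sparcl1, Dspp, Dmp1, Ibsp, Mepe and Spp1 among the protein-coding genes of the RefSeq table (GRCm38.p6). Dspp, Dmp1, Ibsp, Mepe and Spp1 encode secreted phosphoproteins known from bone and teeth. Dspp and Ibsp were well above background in 0 of 16 channels. Dmp1 (-0.21 ± 0.13, adjusted p = 0.321) and Mepe (-0.06 ± 0.07, adjusted p = 0.611 in limma) were well above background in all 16 channels and did not pass for the mean cryolesion change, while Spp1 was 3.72 ± 0.50 and Sparcl1 -1.09 ± 0.19.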
